A study of Mus musculus with 6 samples.

Results

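The 10 genes described here encode the insulin-like growth factors Igf1 and Igf2, their receptors Igf1r and Igf2r, and 6 binding proteins, Igfbp2 to Igfbp7. They were selected by symbol, with earlier results of these data known, and all 10 were found among the 24338 genes of the deposited table that had a number in every library. The table holds RNA-seq values from lungs of C57BL/6 mouse embryos at E12.5, with 3 libraries in each of 2 groups. Every embryo carried Shh-Cre, a Cre recombinase expressed from the Sonic hedgehog gene, which at this stage acts in the lung endoderm that forms the epithelium. The control group was Shh-Cre;Sin3a flox/+, with 1 allele open to deletion, and in mutants (Shh-Cre;Sin3a flox/flox) both alleles were. The labels do not say whether a library came from 1 embryo or a pool, nor whether libraries came from separate litters, so p-values measure only the spread between these samples. Whole lungs were used, so fewer cells of a type and less RNA per cell cannot be told apart.

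IGF1 and IGF2 are small secreted peptides related to insulin. Both activate IGF1R, a receptor tyrosine kinase that signals through insulin receptor substrates, phosphoinositide 3-kinase and AKT and drives growth of embryonic tissues, the lung included. IGF2R has no kinase activity and carries IGF2 and mannose 6-phosphate-tagged enzymes to the lysosome. The binding proteins hold IGFs outside cells, extend their life and control their access to the receptor, and proteases release the ligand again. SIN3A is the scaffold of a histone deacetylase corepressor complex.

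Values are FPKM, a measure of fragments per transcript length relative to the library total, which allows levels of different genes to be set side by side. Sets of 3 values are in the order of library numbers 1, 2 and 3. Absolute depth is unknown. Summed FPKM ran from 676961 to 738697 in the control libraries and from 627190 to 645621 in the mutant libraries, and 7041 to 7837 genes stood at the floor of 0.01 FPKM in a library, most in control library 3 and mutant library 1 (7829 and 7837). Sin3a itself measured 18.6 to 19.5 FPKM in the controls against 16.3 to 18.8 FPKM in the mutants (log2 change -0.07, SE 0.09, adjusted p = 0.68), a value that covers the whole gene in all lung cells and so does not check the genotype labels.

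Among the 10 genes, Igfbp5 rose in the mutant lungs and was the only one whose change passed the test. Igf2r was 1.46-fold higher and Igfbp2 1.36-fold lower in group means, with groups that did not overlap, and neither passed. Igf2 and Igfbp4, both abundant, had log2 changes of -0.05 and 0.02. Changes were tested by limma on log2(FPKM + 1), a scale that understates the change of low genes, with Benjamini-Hochberg adjustment over the 12742 genes whose mean reached 1 FPKM, and an adjusted p under 0.05 counted as changed. All 10 genes had a mean above that minimum. One of the 10 was called, against 3.34% of all genes tested. The groups did not overlap for 4 of the 10 (3 higher and 1 lower), against 29.5% of all genes tested (14.9% higher and 14.6% lower). The median log2 change of the 10 was 0.08, beside -0.01 for all genes tested.

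**Figure D1:**
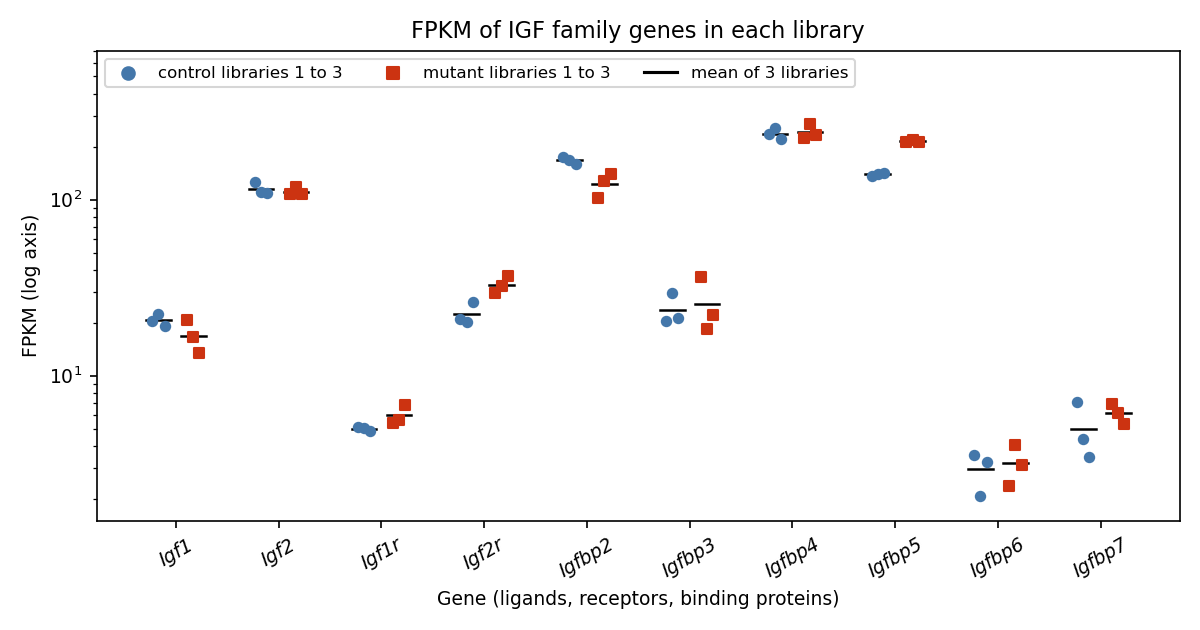
FPKM (log axis) of the 10 IGF family genes in control libraries (blue circles, libraries 1 to 3 from left to right) and mutant libraries (red squares, in the same order), with black lines at the mean of 3 libraries. Igfbp5 lies between 136 and 142 FPKM in controls and between 213 and 217 FPKM in mutants, while the points of Igf1, Igf2, Igfbp3, Igfbp4, Igfbp6 and Igfbp7 overlap between groups.

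The levels spanned from Igfbp6, with 2.08 to 4.05 FPKM over the 6 libraries, to Igfbp4, with 219 to 268 FPKM. Igfbp4 was the highest of the 10 and Igfbp6 the lowest in each of the 6 libraries. Igfbp4, Igfbp5, Igfbp2 and Igf2 formed an abundant tier above 100 FPKM in all libraries. A middle tier held Igf2r (20.1 to 36.6 FPKM), Igfbp3 (18.5 to 36.5 FPKM) and Igf1 (13.4 to 22.5 FPKM), whose ranges overlapped. Igfbp7 (3.47 to 7.04 FPKM) and Igf1r (4.82 to 6.83 FPKM) came next, with overlapping ranges, and the range of Igfbp7 also reached that of Igfbp6. Within the abundant tier the order differed between the groups. Igfbp2 ranked 2 and Igfbp5 ranked 3 in each control library, whereas Igfbp5 ranked 2 in each mutant library and Igfbp2 ranked 3 or 4.

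Of the ligands, Igf2 was several times more abundant than Igf1 in every library. Igf2, on chromosome 7 from 142650766 to 142666816 on the minus strand (GRCm38), encodes the main IGF ligand of the embryo and is expressed from the paternal allele. It measured 126, 110 and 109 FPKM in the controls against 107, 117 and 108 FPKM in the mutants. The 2 groups overlapped, with the highest value in control library 1. The log2 change was -0.05 (SE 0.09, adjusted p = 0.76), and its 95% interval ran from a change of -16.7% to one of 11.5% in FPKM + 1. The sign turned with quantile normalization (0.07) and without control library 1 (0.01). It also turned without globin and small RNA genes (0.08), a setting that moved the median of all genes up by 0.114, and relative to that median Igf2 was at -0.03, beside -0.05 in the fit as reported.

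Igf1, on chromosome 10 from 87858265 to 87937042 on the plus strand, encodes the ligand that carries much of the response to growth hormone after birth. Its FPKM was 20.5, 22.5 and 19.1 in the controls against 20.6, 16.6 and 13.4 in the mutants. Mutant library 1 lay within the control range and the other 2 mutant libraries lay below it. This gave a log2 change of -0.30 (SE 0.15, adjusted p = 0.29), with -0.15 without mutant library 3 and -0.44 without mutant library 1. Igf2 exceeded Igf1 by 5.59 ± 0.627-fold in FPKM in controls and 6.79 ± 1.45-fold in mutants (SD, n = 3). The change of the Igf2 to Igf1 ratio was 0.24 on the log2 scale of FPKM + 1 (exact 2-sided permutation test p = 0.3, the smallest possible being 0.1). It was 0.16 without control library 2, 0.42 without mutant library 1 and 0.12 without mutant library 3.

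H19, the maternally expressed noncoding RNA that lies 72622 bp from Igf2 and shares its imprinting control region, was more abundant than Igf2. It measured 290, 262 and 261 FPKM in the controls against 282, 335 and 279 FPKM in the mutants. The groups overlapped, and its log2 change was 0.14 (SE 0.10, adjusted p = 0.45), or 0.05 without mutant library 2. H19 was named for its place beside Igf2, after its values were seen. Igf2os, the antisense gene that overlaps Igf2, measured 0.406 to 0.904 FPKM over the 6 libraries and was under the minimum for testing. Because the cDNA kit keeps no strand information, overlapping genes on opposite strands share reads that cannot be told apart. Igf1 is overlapped on the other strand by Igf1os, and Igf2 on its own strand by Gm49394 and Mir483. The part of these genes in the values of Igf1 and Igf2 was not tested.

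The receptor gene Igf1r, on chromosome 7 from 67952827 to 68233668 on the plus strand, encodes the signalling receptor for both ligands. It measured 5.08, 5.05 and 4.82 FPKM in the controls against 5.38, 5.63 and 6.83 FPKM in the mutants. All 3 mutant libraries lay above all 3 control libraries, by a margin that was small in mutant libraries 1 and 2. The log2 change was 0.21 (SE 0.12, adjusted p = 0.33), and 0.12 without mutant library 3.

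Igf2r, on chromosome 17 from 12682406 to 12769664 on the minus strand, encodes the receptor that clears IGF2 and delivers lysosomal enzymes. It measured 21.0, 20.1 and 26.1 FPKM across the controls. Across the mutants it measured 29.6, 32.1 and 36.6 FPKM. The groups did not overlap, and control library 3 came closest to the mutants. The log2 change came to 0.53 (SE 0.13, unadjusted p = 0.0037, adjusted p = 0.067). Over all genes tested its unadjusted p ranked 699. The gene passed the threshold without globin and small RNA genes (log2 change 0.66, adjusted p = 0.033) and without mutant library 1 (0.60, adjusted p = 0.0498). Its adjusted p ran from 0.033 to 0.23 over all settings.

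Igf2r shares its locus in the table with Airn, the paternally expressed antisense RNA that starts inside Igf2r and takes part in silencing its paternal allele. Mas1 is listed at that locus too but does not overlap Igf2r in GENCODE. Airn measured 31.6, 35.1 and 25.4 FPKM in the controls against 43.5, 38.5 and 42.0 FPKM in the mutants. It was 1.35-fold higher in mutants, again with groups that did not overlap (log2 change 0.43, SE 0.13, adjusted p = 0.11), and it passed without globin and small RNA genes (adjusted p = 0.032). Airn over Igf2r stood at 1.41 ± 0.393 in controls and 1.27 ± 0.172 in mutants (SD, n = 3). The 2 genes overlap on opposite strands, and the part of one in the values of the other was not tested.

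The 250 bases before the RefSeq start of Igf2r (chr17:12769707-12769956, minus strand, GRCm38.p6) are shown because this window held the most matches to the motifs searched. Those were CACGTG, the E-box bound by MYC, MAX and MXD proteins, of which MXD proteins recruit SIN3, GGGCGG, the GC box bound by SP1, and the core promoter element TATAAA. Both strands were searched, and matches on either are in capitals.
Igf2r: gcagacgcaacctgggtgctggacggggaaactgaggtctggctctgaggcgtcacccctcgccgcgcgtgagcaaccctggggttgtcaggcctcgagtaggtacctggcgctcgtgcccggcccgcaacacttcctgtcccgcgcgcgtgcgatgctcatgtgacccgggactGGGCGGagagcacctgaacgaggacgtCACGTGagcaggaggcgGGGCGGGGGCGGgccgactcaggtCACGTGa
The capitals mark 2 E-boxes, which start 48 and 7 bases before the start site, and 3 GC boxes, which start 75, 31 and 25 bases before it. The GC boxes at 31 and 25 bases adjoin each other, and no E-box shares bases with a GC box. The window held 27 CpG dinucleotides, against a median of 6 over all 32851 windows of this length in RefSeq. An E-box was found in 6.0% of all those windows, a GC box in 32.7% and TATAAA in 12.4%. RefSeq gave 14 windows for the 10 genes, 4 of them for Igf2. Of the 14, 2 held an E-box (1 each of Igf2r and Igfbp2), 6 a GC box and 2 TATAAA (1 each of Igfbp4 and Igfbp6). A match describes these letters and does not show that a factor binds there.

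Igf2 exceeded Igf2r by 5.23 ± 0.946-fold in FPKM in controls and 3.41 ± 0.393-fold in mutants (SD, n = 3). Each mutant library had a lower ratio (2.95 to 3.65) than each control library (4.18 to 6.02). On the log2 scale of FPKM + 1 the ratio differed by -0.59 between mutants and controls (exact 2-sided permutation test p = 0.1, the smallest possible in this design).

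Among the binding proteins, Igfbp5 rose, Igfbp2 was lower without passing the test, and the other 4 had groups that overlapped. Igfbp5, on chromosome 1 from 72857932 to 72874884 on the minus strand, encodes a binding protein that attaches to extracellular matrix. It measured 136, 139 and 142 FPKM across the controls. Across the mutants it measured 213, 217 and 213 FPKM. The groups stood far apart and the libraries of a group lay close together. The within-group SD of its log2 values was 0.024, against a median of 0.158 for all genes tested, and only 0.24% of those genes had an SD that low or lower. The log2 change was 0.62 (SE 0.07, 95% interval 0.46 to 0.78, adjusted p = 0.0079), and its unadjusted p ranked 51 among all genes tested.

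The call of Igfbp5 depended on which libraries were used, while the size of the change did not. Without control library 1, control library 2 or mutant library 2 the adjusted p was 0.058, 0.061 and 0.072, with log2 changes of 0.61, 0.62 and 0.61. Over all settings its log2 change lay between 0.61 and 0.75. Igfbp5 stayed called without control library 3, mutant library 1 or mutant library 3.

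**Figure D2:**
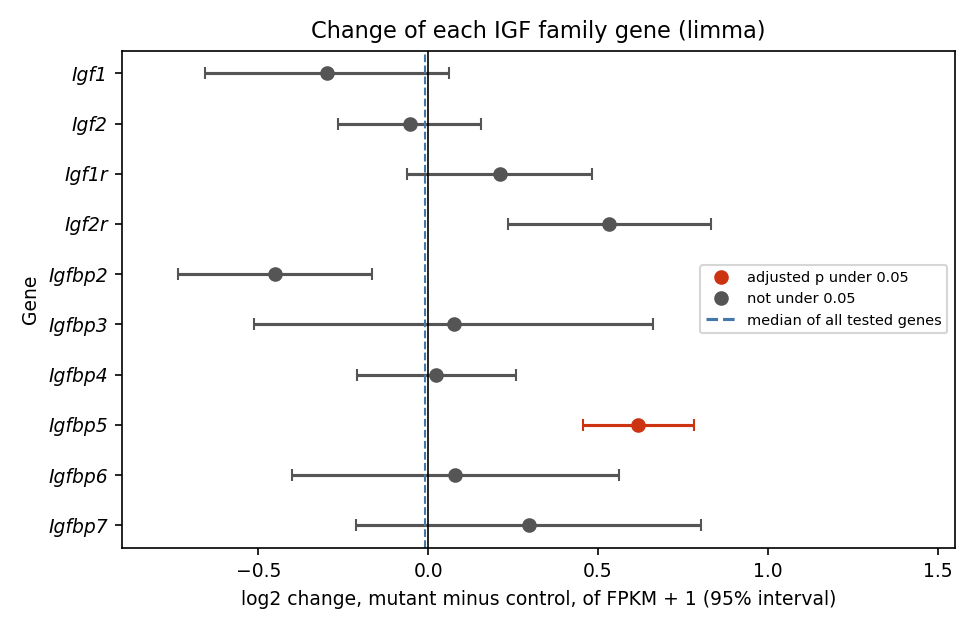
Log2 change (mutant minus control, of FPKM + 1) of each IGF family gene with its 95% interval from limma, 3 libraries per group. Igfbp5 (red) is the only gene with an adjusted p under 0.05, the intervals of Igf2r and Igfbp2 also leave out 0 before adjustment, and the dashed line marks the median of all tested genes at -0.01.

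Igfbp2, on chromosome 1 from 72824503 to 72852474 on the plus strand, encodes a binding protein that is abundant in fetal tissues. Its FPKM was 175, 168 and 159 across the controls. Across the mutants it was 102, 128 and 139. All mutant libraries lay below all control libraries, and mutant library 1 was lowest. The fitted log2 change was -0.45 (SE 0.12, unadjusted p = 0.0069, adjusted p = 0.090). No setting brought its adjusted p under 0.05, with a range of 0.062 to 0.26, and its log2 change stayed between -0.54 and -0.32.

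Igfbp2 and Igfbp5 are neighbours that face each other tail to tail on chromosome 1, with 5457 bp between their annotated ends. Their levels stood in opposite order in the 2 groups. Igfbp5 over Igfbp2 in FPKM was 0.778, 0.830 and 0.894 in the controls against 2.08, 1.70 and 1.53 in the mutants. Every control library thus had more Igfbp2 than Igfbp5, and every mutant library had more Igfbp5 than Igfbp2. On the log2 scale of FPKM + 1 the ratio differed by 1.07 (-0.26 ± 0.10 in controls and 0.81 ± 0.23 in mutants, SD, n = 3 per group), and the exact 2-sided permutation test gave p = 0.1, the smallest possible. Both genes had groups that did not overlap, in opposite directions. This p was therefore fixed by the values of the single genes and adds no separate evidence. Of the other tested genes within 500 kb of the pair, Xrcc5, Smarcal1 and Rpl37a, 0 were called by limma, against 3.34% of all genes tested. Xrcc5 had an unadjusted p under 0.05, as did 23.0% of all genes tested. Their log2 changes were -0.28, 0.04 and -0.12 (adjusted p = 0.17, 0.85 and 0.43), and these neighbours were chosen after the values of the pair were seen.

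The 250 bases before the first RefSeq start of each gene are shown because the pair lies side by side and differed in direction. The window of Igfbp2 is chr1:72824230-72824479 on the plus strand and that of Igfbp5 is chr1:72874866-72875115 on the minus strand (RefSeq, GRCm38.p6), and capitals mark the same motifs as for Igf2r.
Igfbp2: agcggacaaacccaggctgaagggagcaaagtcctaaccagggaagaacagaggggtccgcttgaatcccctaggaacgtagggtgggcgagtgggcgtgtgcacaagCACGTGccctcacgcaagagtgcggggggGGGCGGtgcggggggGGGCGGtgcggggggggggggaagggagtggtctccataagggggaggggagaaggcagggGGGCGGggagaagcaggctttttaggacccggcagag
Igfbp5: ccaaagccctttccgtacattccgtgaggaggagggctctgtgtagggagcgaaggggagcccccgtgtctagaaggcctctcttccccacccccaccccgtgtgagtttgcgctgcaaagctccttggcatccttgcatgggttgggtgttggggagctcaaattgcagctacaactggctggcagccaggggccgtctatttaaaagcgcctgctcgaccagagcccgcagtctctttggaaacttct
Igfbp2 held 1 E-box, which starts 142 bases before the start site, and 3 GC boxes, which start 113, 98 and 37 bases before it, and none of these overlap. The window of Igfbp5 held none of the 3 letter strings. Nor did the second RefSeq window of Igfbp2 (chr1:72825137-72825386), which is not printed. In the windows shown, GC content was 67.2% for Igfbp2 and 58.8% for Igfbp5, against a median of 52.4% over all windows. Their CpG counts were 14 and 10.

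Igfbp4, on chromosome 11 from 99041244 to 99054392 on the plus strand, encodes a binding protein that inhibits IGF action until it is cleaved by the protease PAPPA. It measured 236, 255 and 219 FPKM in the controls against 224, 268 and 232 FPKM in the mutants. The 2 groups overlapped, with the highest value in mutant library 2 and the lowest in control library 3. The log2 change was 0.02 (SE 0.10, adjusted p = 0.91), with a 95% interval from -13.5% to 19.6% of FPKM + 1, and its sign turned without control library 3 (-0.03) and without mutant library 2 (-0.05).

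Igfbp3, on chromosome 11 from 7206086 to 7213923 on the minus strand, encodes the main carrier of IGFs in adult blood. Its FPKM was 20.3, 29.4 and 21.2 in the controls against 36.5, 18.5 and 22.0 in the mutants. The highest and the lowest value were both in mutant libraries. Its log2 change was 0.08 (SE 0.25, adjusted p = 0.89), with a 95% interval from -29.8% to 58.3% of FPKM + 1. It was -0.02 without control library 1 and -0.20 without mutant library 1 (adjusted p = 0.47). Igfbp1, which lies 3539 bp from Igfbp3 and is known from fetal liver, measured 0.01 to 0.384 FPKM in the 6 libraries and was under the minimum for testing.

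Igfbp6, on chromosome 15 from 102144362 to 102149511 on the plus strand, encodes a binding protein that prefers IGF2. It measured 3.55, 2.08 and 3.21 FPKM in the controls against 2.37, 4.05 and 3.10 FPKM in the mutants. The groups overlapped (log2 change 0.08, SE 0.21, adjusted p = 0.85), and the sign turned without control library 2 (-0.09) or mutant library 2 (-0.07). Igfbp7, on chromosome 5 from 77349240 to 77408041 on the minus strand, encodes a secreted protein that binds IGFs only weakly. It measured 7.04, 4.34 and 3.47 FPKM in the controls against 6.86, 6.15 and 5.31 FPKM in the mutants. Control library 1 was the highest of the 6 (log2 change 0.30, SE 0.22, adjusted p = 0.46). The change was 0.54 without control library 1 and 0.11 without control library 3. Igfbp7 shares its locus in the table with Polr2b, an RNA polymerase subunit gene on the other strand that measured 82.6 ± 3.10 FPKM in the controls against 70.6 ± 5.21 FPKM in the mutants (SD, n = 3), and the part of the overlap in the values of Igfbp7 was not tested.

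Igfbp5 took a larger share and Igfbp2 a smaller share of the binding-protein transcripts in every mutant library than in any control library. Summed over Igfbp2 to Igfbp7, the level was 575 ± 24.6 FPKM in the controls against 613 ± 28.5 FPKM in the mutants (SD, n = 3), with ranges that overlapped (548 to 597 and 585 to 642 FPKM). Igfbp5 made up 23.6%, 23.3% and 25.9% of that sum across the controls. Across the mutants it made up 36.4%, 33.9% and 34.6%. Igfbp2 made up 28.1% to 30.3% in controls and 17.5% to 22.7% in mutants. Igfbp4 kept the largest share in every library, 40.0% to 42.7% in controls and 37.7% to 41.7% in mutants. Igfbp3, Igfbp6 and Igfbp7 had shares of 2.88% to 6.24%, 0.349% to 0.631% and 0.632% to 1.22% over the 6 libraries. Binding-protein FPKM exceeded summed ligand FPKM by 4.24 ± 0.276-fold in controls and 4.81 ± 0.235-fold in mutants (SD, n = 3), and these groups did not overlap (3.94 to 4.49 and 4.58 to 5.05). These sums and shares are descriptions of transcripts and carry no test.

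**Figure D3:**
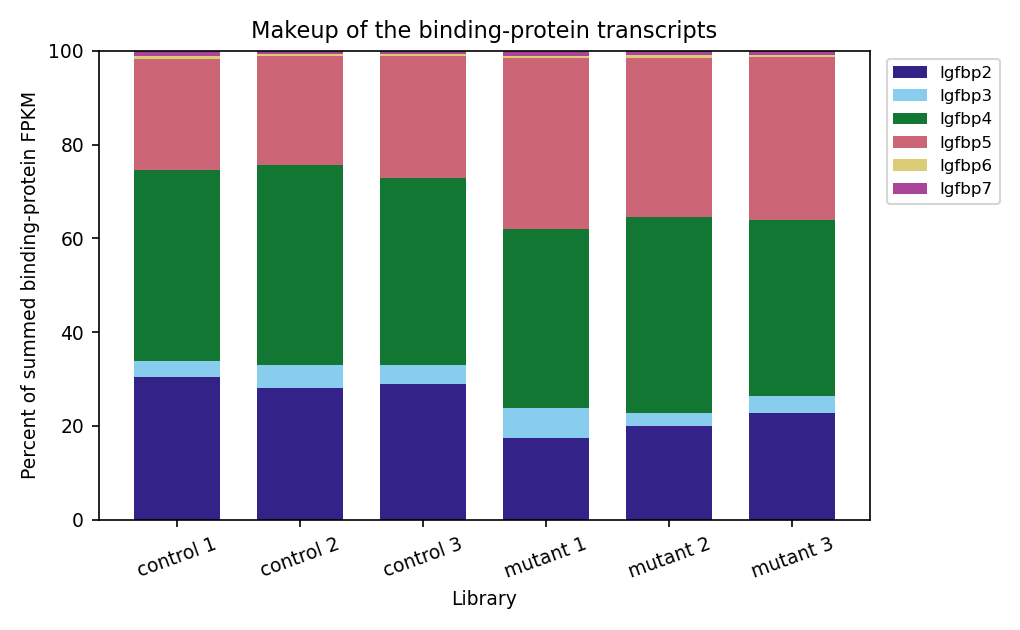
Percent of the summed FPKM of Igfbp2 to Igfbp7 taken by each gene in each library (stacked bars, 3 control and 3 mutant libraries). Igfbp5 takes 23.3% to 25.9% in controls and 33.9% to 36.4% in mutants, Igfbp2 takes 28.1% to 30.3% and 17.5% to 22.7%, and Igfbp4 has the largest share in every bar.

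Other genes of the pathway were listed by role. Of 66 genes in 4 lists, 48 were tested, and 2 rose and 0 fell, against 1.71% of all genes tested that rose and 1.63% that fell. At an unadjusted p under 0.05 there were 12 of the 48, against 23.0% of all genes tested. Both genes that rose, Adamts1 and Ctsd, were in the list of IGFBP proteases and their inhibitors, which held 9 tested genes, 7 of them with positive changes and a median log2 change of 0.39.

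Adamts1, which encodes a secreted metalloprotease that cuts matrix proteoglycans, measured 39.1, 36.5 and 37.3 FPKM across the controls. Across the mutants it measured 55.2, 53.0 and 55.7 FPKM. As with Igfbp5, the groups stood apart and each was narrow (log2 change 0.53, SE 0.08, adjusted p = 0.020). Ctsd encodes cathepsin D, a lysosomal protease that travels on mannose 6-phosphate receptors such as IGF2R and can cut IGF binding proteins. It measured 229, 204 and 199 FPKM in the controls against 286, 354 and 305 FPKM in the mutants (log2 change 0.58, SE 0.11, adjusted p = 0.036). Both calls ended on leaving out any 1 of the controls, or mutant library 2, with adjusted p of 0.078 to 0.12 for Adamts1 and 0.097 to 0.17 for Ctsd. The call of Ctsd also ended without mutant library 3 (0.058), with no filter on mean FPKM (0.058) and with no intensity trend (0.053).

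In that list, 5 of the 9 tested genes had an unadjusted p under 0.05, against 23.0% of all genes tested. Of those not called, Plat, Mmp2 and Pappa lay above their controls. Pappa2 and Stc1 had groups that overlapped, and Htra1 and Timp1 had negative log2 changes (-0.15 and -0.06). Plat, the tissue plasminogen activator gene, measured 60.8 to 71.3 FPKM in the controls against 85.3 to 89.9 FPKM in the mutants (log2 change 0.39, SE 0.09, adjusted p = 0.060). Mmp2, a gelatinase gene named after its values were seen, had the largest log2 change of the list, 0.67 (80.6 ± 14.8 and 129 ± 18.4 FPKM, SD, n = 3, adjusted p = 0.063). Pappa, which encodes the protease that cuts IGFBP4, was also named for its role after its values were seen. It measured 1.18 to 1.41 FPKM in the controls against 1.89 to 2.41 FPKM in the mutants, groups that did not overlap (log2 change 0.47, SE 0.13, adjusted p = 0.099). Without globin and small RNA genes all 3 passed (adjusted p = 0.014 for Plat, 0.022 for Mmp2 and 0.040 for Pappa). That setting raised the median log2 change of all genes by 0.114 and called 841 genes higher, in place of 218. Plat also passed with quantile normalization (0.042) and Mmp2 without mutant library 1 (0.040).

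Receptors and adaptors downstream of the ligands held 9 tested genes (median log2 change 0.03). Of these, 0 were called by limma and 2 had an unadjusted p under 0.05, against 3.34% and 23.0% of all genes tested. Shc1, an adaptor that links the receptor to RAS, measured 42.3 to 46.5 FPKM in the controls against 56.4 to 56.8 FPKM in the mutants (log2 change 0.35, SE 0.08, adjusted p = 0.058). It passed without globin and small RNA genes (adjusted p = 0.017) and with quantile normalization (0.046). Gab1, a docking protein gene, had a log2 change of 0.27 (adjusted p = 0.19), and Irs1, an insulin receptor substrate gene, one of -0.33 (adjusted p = 0.24). Insr, the insulin receptor gene, named for its kinship with Igf1r after its values were seen, measured 3.27 ± 0.215 and 3.81 ± 0.0608 FPKM (SD, n = 3, log2 change 0.18, adjusted p = 0.37). Ins1 and Ins2, the insulin genes, were listed at the 0.01 FPKM floor throughout.

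In the PI3K, AKT and mTOR list, 0 of 20 tested genes were called by limma, against 3.34% of all genes tested (median log2 change 0.03). An unadjusted p under 0.05 was found for 3 of the 20, against 23.0% of all genes tested. Pik3r3, a regulatory subunit gene of phosphoinositide 3-kinase, measured 13.0, 13.4 and 12.7 FPKM in the controls against 10.6, 9.09 and 7.10 FPKM in the mutants. The groups did not overlap (log2 change -0.51, SE 0.14, adjusted p = 0.092), and it passed without mutant library 1 (-0.64, adjusted p = 0.042). Pik3cd, a catalytic subunit gene known from leukocytes, had a log2 change of 0.43 (adjusted p = 0.13), and Foxo1, a transcription factor gene that AKT restrains, one of 0.25 (adjusted p = 0.20).

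Among other family genes and regulators of IGF mRNA, 10 genes were tested (median log2 change 0.07). Of these, 0 were called by limma and 2 had an unadjusted p under 0.05, against 3.34% and 23.0% of all genes tested. Those 2 were Airn, described above, and Igf2bp1. The latter encodes an RNA-binding protein that binds Igf2 mRNA, and measured 18.5 to 21.4 FPKM in the controls against 14.7 to 16.7 FPKM in the mutants (log2 change -0.34, SE 0.10, adjusted p = 0.11). Its relative Igf2bp3 had a log2 change of -0.20 (adjusted p = 0.24).

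**Figure D4:**
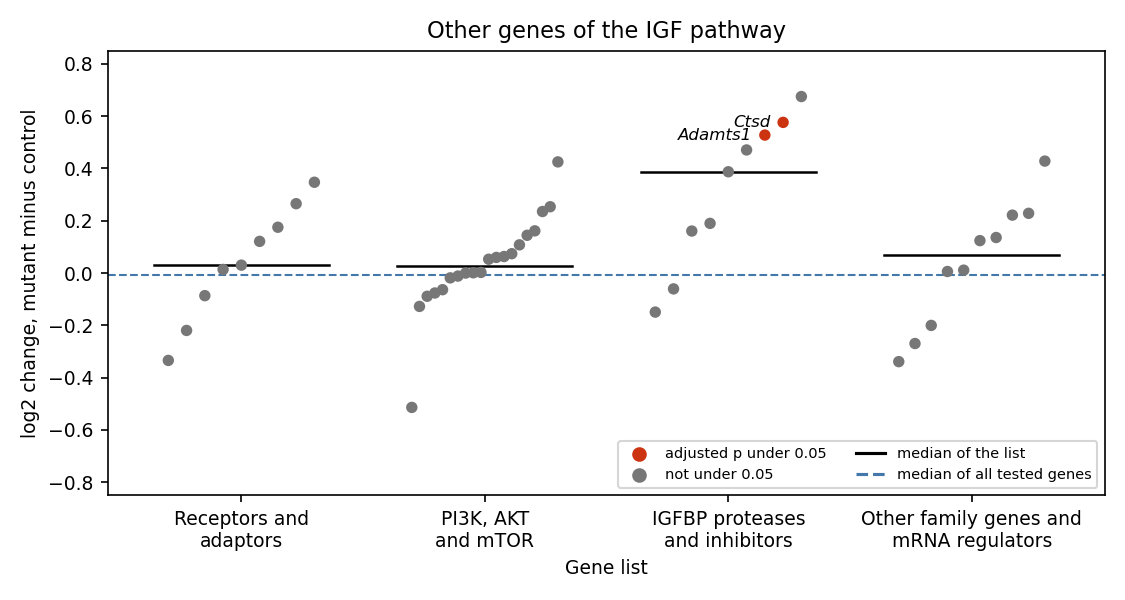
Log2 change (mutant minus control, of FPKM + 1) of the 48 tested genes in 4 pathway lists, 1 point per gene in rising order within a list, with black lines at list medians and a dashed line at the median of all tested genes. Adamts1 and Ctsd (red) are the only points with an adjusted p under 0.05, and the protease list has the highest median, 0.39.

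Markers of some lung cell types differed between the groups. Of all genes tested, 1.71% rose, 1.63% fell and 23.0% had an unadjusted p under 0.05, shares to set beside the counts below. All 8 epithelial markers were lower in mutants and 7 of them fell, and their summed level was 201 to 249 FPKM in the controls against 52.9 to 69.7 FPKM in the mutants. Of 10 mesenchymal markers 3 rose (Col1a2, Col3a1 and Pdgfra) and 2 fell (Foxf1 and Wnt2), so the list went both ways. The 3 collagen markers summed to 625 to 839 FPKM in the controls against 1062 to 1342 FPKM in the mutants, and the other 7 to 249 to 261 against 203 to 224 FPKM, a division made after the values were seen. All 6 macrophage markers had positive changes and 2 rose (70.1 to 84.7 and 116 to 157 FPKM summed). Of the mesothelial and endothelial markers, 1 of 5 and 1 of 6 rose. None of the 5 smooth muscle markers was called by limma, with 0 at an unadjusted p under 0.05. Of the liver markers, the 2 that were tested had negative changes, the summed level of the list was 3.99 to 9.64 FPKM over the 6 libraries, and Alb, Ttr, Serpina1a and Ahsg were under the minimum for testing. In the heart, cartilage and neural lists, 0 of 9 tested markers were called by limma and 1 had an unadjusted p under 0.05. That 1 was the heart marker Tnnt2 (log2 change 1.05, adjusted p = 0.12). It measured 8.57, 8.60 and 4.77 FPKM in the controls against 9.27, 22.4 and 18.7 FPKM in the mutants. The heart list summed to 32.0 to 54.0 FPKM in the controls against 32.5 to 104 FPKM in the mutants. No marker in any of these lists was at the floor in all 6 libraries. The part of cell makeup in the levels of the IGF genes was not tested.

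FPKM is relative to all fragments of a library. The erythroid markers, mostly globins, summed to 21829 to 42693 FPKM in the controls against 13808 to 19052 FPKM in the mutants. Of these 7 markers 2 fell, against 1.63% of all genes tested. In the setting without globin and small RNA genes, these were removed and the remaining FPKM was scaled to the same sum in every library. The median log2 change over all genes tested then shifted by 0.114. Calls over all of them became 841 higher and 173 lower, in place of 218 and 208. The fit as reported has no such scaling, and summed FPKM was lower in every mutant library than in any control library. The parts of removal and of scaling in the shift were not tested apart. Relative to the shifted median, Igfbp5 was at 0.64, Igf2r at 0.55 and Igfbp2 at -0.43, beside 0.63, 0.54 and -0.44 in the fit as reported. The passes of Igf2r, Airn, Plat, Mmp2, Pappa, Shc1 and Cd81 in that setting include the shift.

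**Figure D5:**
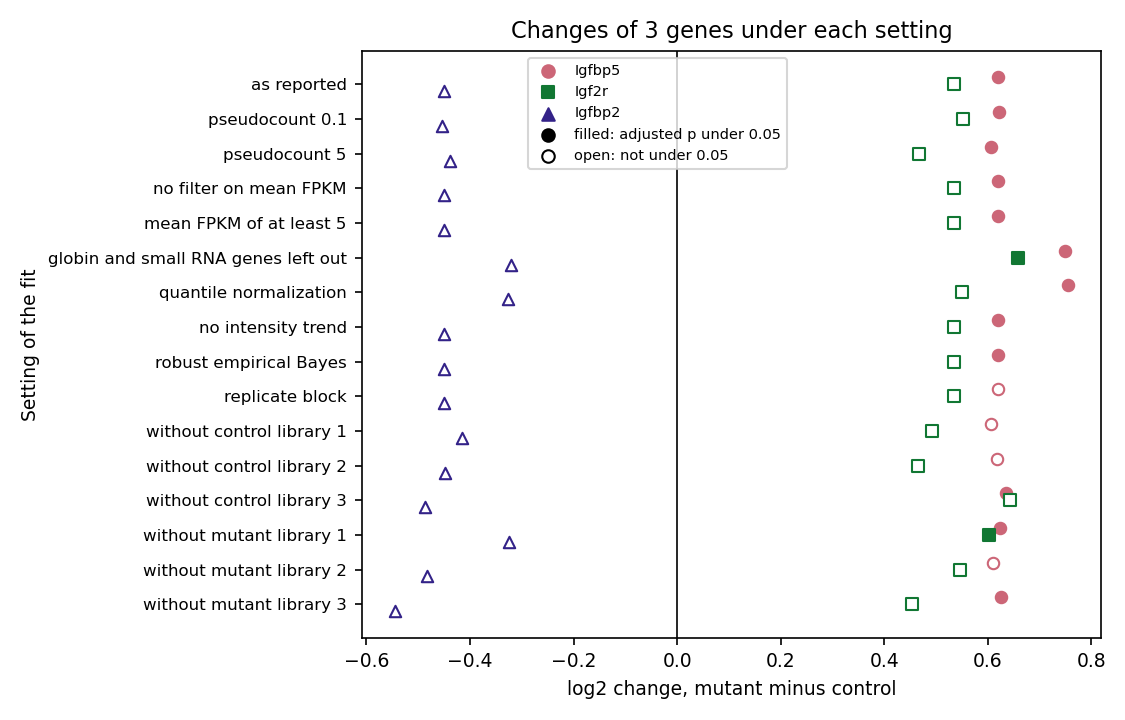
Log2 change (mutant minus control) of Igfbp5 (circles), Igf2r (squares) and Igfbp2 (triangles) under each setting of the fit, with filled points at an adjusted p under 0.05 and open points otherwise. Igfbp5 stays between 0.61 and 0.75 and is open under 4 alternatives, Igf2r is filled under 2, and Igfbp2 is drawn unfilled throughout at -0.54 to -0.32.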

How the data were processed

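RNA-seq had been made from 6 lungs or lung pools, 3 per group, using SMARTer Ultra Low Input v3 cDNA and 75 bp paired-end reads, per the labels' protocols. The deposited values are FPKM per gene, made by the authors with TopHat, Bowtie2 and Cufflinks on mm10 (GRCm38), per the submitters' processing notes. Tool versions and annotation: not given in the sources used here. Of 24341 genes, 3 carried a failure mark and were left out. From the FPKM, log2(FPKM + 1) was fitted with limma 3.58.1 (R 4.3.3), with an intensity trend, over genes whose mean reached 1 FPKM. Adjusted p values are from that fit, or from the alternative named beside them. The fit was tested on simulated data. Single ratios were compared by exact permutation tests over libraries (scipy 1.17.1).

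The members, lists, tests and alternatives were chosen with earlier results of these data known. Named were the 10 members, Sin3a, every called gene of the pathway lists and, in each list, the 3 genes of lowest unadjusted p. All other genes named, such as antisense genes, neighbours and genes at the floor, were chosen after their values were seen. Positions and strands are from GENCODE M21, and promoter windows from RefSeq. Depth is unknown, so low values carry an unknown counting error.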

Additional observations from a re-analysis of the deposited data

How the results depend on the processing

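The count of called IGF genes was 1 of 10. It was 2 without globin and small RNA genes, 0 with a replicate block, and 0 to 2 when 1 library was left out (0 without control library 1, control library 2 or mutant library 2, and 2 without mutant library 1). Pathway genes called were 2 as reported, 1 with no filter on mean FPKM, 7 without globin and small RNA genes, 4 with quantile normalization, 1 with no intensity trend, 0 with the replicate block and 0 to 4 with 1 library left out. All genes called were 426 as reported, 242 with no filter, 1014 without globin and small RNA genes, 52 with the replicate block and 52 to 795 with 1 library left out (61, 66 and 64 without control libraries 1 to 3, and 795, 52 and 283 without mutant libraries 1 to 3). The cause of these differences was not tested.

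The log2 change of Igf2 turned to 0.075 without globin and small RNA genes and 0.068 with quantile normalization, and ran from -0.095 to 0.013 with 1 library left out (0.013 without control library 1). With 1 library left out, Igfbp3 ran from -0.20 to 0.27 (-0.020 without control library 1 and -0.20 without mutant library 1). Igfbp4 ran from -0.053 to 0.079 (-0.029 without control library 3 and -0.053 without mutant library 2), and Igfbp6 from -0.088 to 0.22 (-0.088 without control library 2 and -0.066 without mutant library 2). Sin3a turned to 0.050 (adjusted p = 0.80) without globin and small RNA genes, a setting that moved the median of all genes by 0.114. The directions of Igf1, Igf1r, Igf2r, Igfbp2, Igfbp5 and Igfbp7 held under all 15 alternatives, and those of the 3 ratios under each alternative run for them.

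Same-numbered libraries of the 2 groups did not deviate together, with correlations over genes of -0.09 to -0.03. Of 6 libraries, 0 correlated best with their own number. Correlations this few show no pairing by number, but they cannot exclude that same-numbered libraries shared a litter or handling. With the replicate block the adjusted p was 0.086 for Igfbp5, 0.11 for Adamts1 and 0.13 for Ctsd.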

Other observations

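Other tested genes lie within 500 kb of the H19 and Igf2 pair on chromosome 7, and they were looked at after the values of the pair were seen. Of 11 such genes, 2 rose, against 1.71% of all genes tested. One was Ctsd, given above, and the other was Trpm5, which encodes a cation channel of chemosensory cells. Trpm5 measured 4.83 ± 0.566 FPKM in the controls against 8.26 ± 0.872 FPKM in the mutants (SD, n = 3), a log2 change of 0.67 (SE 0.12, adjusted p = 0.036). Trpm5 overlaps Tssc4 on the other strand. Its call ended without any 1 of the control libraries, mutant library 2 or mutant library 3 (adjusted p = 0.062 to 0.17), with no filter on mean FPKM (0.066) and with a minimum of 5 FPKM (0.052). Cd81, a tetraspanin gene, measured 346 ± 9.05 and 428 ± 44.2 FPKM (log2 change 0.30, adjusted p = 0.12), and passed without globin and small RNA genes (0.030) and with quantile normalization (0.038).

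The region near Igf2r on chromosome 17 was also looked at after the values of Igf2r were seen. Of the other 10 tested genes within 500 kb, 0 were called by limma, against 3.34% of all genes tested. An unadjusted p under 0.05 was found for 3 of them (Airn, Tcp1 and Mrpl18), against 23.0% of all genes tested. Tcp1, a chaperonin subunit gene, measured 298 ± 1.39 FPKM in the controls against 216 ± 27.0 FPKM in the mutants (SD, n = 3), a log2 change of -0.47 (SE 0.10, adjusted p = 0.057). It passed with robust empirical Bayes (0.049), without mutant library 1 (0.045) and without mutant library 3 (0.049). Mrpl18, a mitochondrial ribosomal protein gene that overlaps Tcp1 on the other strand, measured 191 ± 10.3 and 156 ± 10.6 FPKM (log2 change -0.29, adjusted p = 0.11). Groups did not overlap for 5 of the 10, Airn and Map3k4 being higher and Tcp1, Mrpl18 and 4732491K20Rik lower in the mutants, against 29.5% of all genes tested.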
